A study of Rattus norvegicus with 16 samples.

Results

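miR-21 is a microRNA (miRNA), a short RNA that guides the Argonaute protein to messenger RNAs and lowers their output. Here it was followed in kidney and blood plasma of rats injected with either an iodinated X-ray contrast medium or saline. It was found in the files by the array's name for it, rno-miR-21. It is 1 of the 350 rat miRNAs on the array and is read by 2 of the 938 probes, each printed in 10 spots. miR-21 was called detected on all 16 arrays, and none of the spots of its probes was saturated on any of them.

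The groups were kidney of rats with contrast-induced acute kidney injury (CI-AKI), kidney of control rats, plasma of CI-AKI rats and plasma of control rats, with 4 pools each. Every rat, controls included, was a male Sprague-Dawley rat that drank nothing for 3 days and then received the diuretic furosemide at 10 mg/kg into muscle. CI-AKI rats were given Omnipaque (iohexol, 350 mg iodine per ml) at 10 ml/kg into the tail vein over 5 min, and control rats the same volume of normal saline. Blood and kidneys were taken 8 h later, so the comparison is of contrast medium against saline in dehydrated, furosemide-treated animals at a single early time. The labels give 24 rats in all, and each array was hybridised with RNA pooled from 3 of them, so a value is an average of 3 animals and the spread between arrays is a spread between such pools.

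miR-21 is among the miRNAs best known from organ injury. In rodent kidneys it has been described as raised after ischaemia and during fibrosis, and it is made by tubule cells, fibroblasts, endothelium and blood cells alike. Its transcription is known to answer to STAT3 and AP-1, which act downstream of cytokines and stress, and transforming growth factor beta is known to speed the maturation of its hairpin. Well-studied targets are Pdcd4, which restrains translation and cell survival, Spry1, an inhibitor of receptor kinase signalling, and, in mouse kidney, Ppara, a regulator of fat oxidation. No messenger RNA was measured in these samples.

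The sequence shows what the probes had to find. In RefSeq's annotation of the rat build GRCr8, the Mir21 hairpin lies at chr10:71902600-71902691 on the minus strand, outside every other gene listed there and 531 bases from Vmp1, the nearest gene on that side. The strand called rno-miR-21 on the array is the 5′ arm, at chr10:71902653-71902674, and rno-miR-21* is the 3′ or passenger arm, at chr10:71902615-71902636. In the 92-base hairpin, capitals mark the 2 arms, at bases 18 to 39 and 56 to 77. In the mature strands, capitals mark the seed, bases 2 to 8, which pairs with target messages.
Mir21 hairpin: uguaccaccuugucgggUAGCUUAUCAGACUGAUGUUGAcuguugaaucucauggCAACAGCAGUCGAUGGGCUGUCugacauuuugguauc
miR-21, 5′ arm: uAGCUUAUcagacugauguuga
miR-21*, 3′ arm: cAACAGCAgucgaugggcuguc
Of the 693 mature rat miRNA names in the RefSeq table, 0 others carry the seed AGCUUAU. The longest run of bases that miR-21 shares with another listed miRNA is 9, in miR-541-5p. Unlike the let-7 or miR-30 miRNAs, miR-21 therefore has no family member in this table that shares its seed.

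Before any scaling, the miR-21 signal was alike in the kidney arrays and very unequal in the plasma arrays. It read 7465, 5587, 4025 and 6609 array units in CI-AKI kidney pools 1 to 4, against 5752, 5850, 6748 and 5514 in control kidney pools. In plasma it read 1240, 5213, 5411 and 526 in CI-AKI pools 1 to 4, against 3231, 4203, 9548 and 213 in control pools. The highest reading was 1.85 times the lowest among CI-AKI kidney pools and 1.22 times among control kidney pools, but 10.3 times among CI-AKI plasma pools and 44.7 times among control plasma pools.

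The low plasma readings came with dim arrays. The labelling spike-in RNA of the kit read 1156 to 1769 in kidney, against 722 to 1790 in plasma pools 1 to 3 and only 82.2 in CI-AKI plasma pool 4 and 29.9 in control plasma pool 4. The same pools had the fewest detected miRNAs, 95 in CI-AKI plasma pool 4 and 84 in control plasma pool 4, while the other arrays detected 156 to 216. Each array was therefore divided by its own 75th percentile, taken over miRNAs detected on all 8 arrays of the tissue, and the plasma differences of miR-21 and the plasma medians of the injury-related lists are also given without the pair of pools numbered 4.

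**Figure D1:**
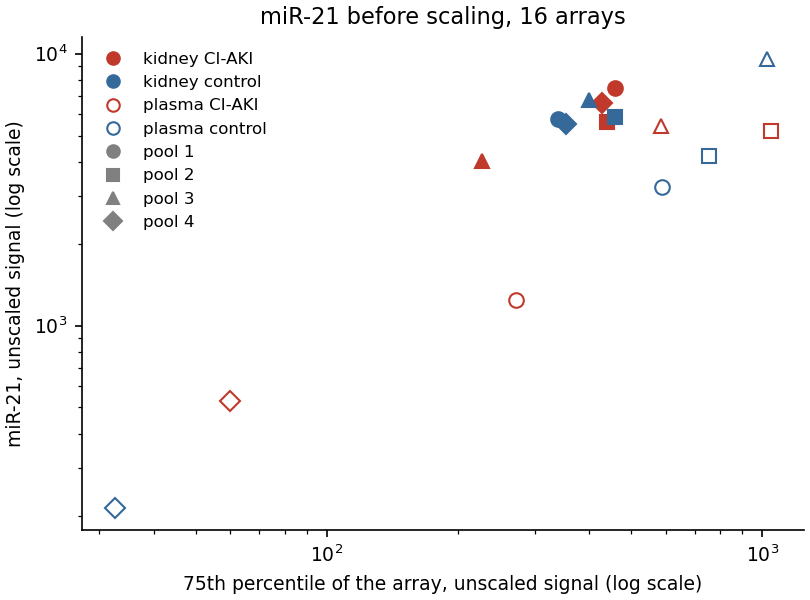
miR-21 before scaling (array units, log axis) against the 75th percentile of the same array (array units, log axis) for the 16 arrays, with filled symbols for kidney, open symbols for plasma, red for CI-AKI, blue for control and a symbol shape for each pool number. The 2 plasma pools numbered 4 lie far to the lower left, at percentiles of 59.9 (CI-AKI) and 32.5 (control), and the kidney arrays lie close together between 228 and 459.

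Contrast-treated and saline-treated kidneys gave nearly the same miR-21 level. Scaled within the tissue, miR-21 read 6192, 4822, 6713 and 5867 in CI-AKI kidney pools 1 to 4, against 6432, 4844, 6411 and 5912 in control kidney pools. The groups overlap throughout, and the lowest pool of each is the one numbered 2. The mean was 5899 ± 798 in CI-AKI kidney and 5900 ± 744 in control kidney (SD, n = 4 each). The log2 difference, CI-AKI minus control, was -0.0014 (SE 0.12, 95% interval -0.28 to 0.28), with an adjusted p of 0.996 from limma. As a ratio the interval runs from 0.822-fold to 1.21-fold, so a larger shift in either direction is outside it and a smaller one cannot be told from none with these 4 pools against 4. In whole kidney, a change in the number of cells that make miR-21 and a change in the amount per cell cannot be told apart.

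The background for that value is small. Of the 176 miRNAs tested in kidney, 3 passed an adjusted p of 0.05, which is 1.7%, all of them higher in CI-AKI. The median log2 difference over all 176 was 0.028. In absolute size the miR-21 difference ranked 2 from the smallest. Its spread between pools was not small: the residual SD was 0.20 on the log2 scale, against a median of 0.13, and ranked 135 of 176 from the smallest. The small difference thus comes from group means that nearly coincide, around pools that vary more than those of most miRNAs.

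In plasma the group means nearly coincided as well, but the pools differed far more. Scaled miR-21 read 1511, 1652, 3072 and 2915 in CI-AKI plasma pools 1 to 4, against 1825, 1850, 3096 and 2178 in control plasma pools. Pools 1 and 2 were the lowest of each group and pool 3 the highest of each, and the groups overlap. The mean was 2288 ± 820 in CI-AKI plasma and 2237 ± 595 in control plasma (SD, n = 4 each). The log2 difference was -0.0064 (SE 0.32, 95% interval -0.73 to 0.72), with an adjusted p of 0.985 from limma. The interval as a ratio, 0.603-fold to 1.64-fold, is wider than the kidney interval on both sides.

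None of the 96 miRNAs tested in plasma passed (0%); 5 of them, or 5.21%, had an unadjusted p under 0.05 in limma. miR-21 had the smallest difference in size of the 96, beside a median of -0.086 over all of them. Its residual SD, 0.45, was close to the median of 0.51 for plasma miRNAs. Without pool 4 of both groups the difference was 0.11 (adjusted p = 0.95 in limma), still well inside the interval.

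**Figure D2:**
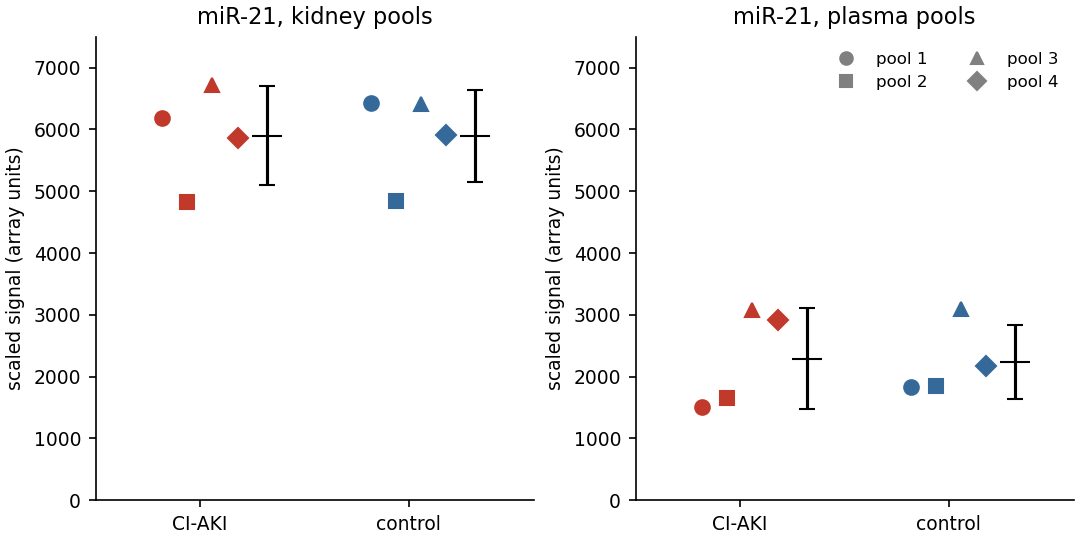
Scaled miR-21 signal (array units, linear axis from 0) in each pool of kidney (left) and plasma (right), CI-AKI in red and control in blue, with a symbol shape for each pool number and bars for the mean and SD of the 4 pools. Kidney and plasma were scaled separately, so heights are comparable within a panel only. In kidney the bars sit at 5899 and 5900, and in plasma at 2288 and 2237, with the plasma pools spread between 1511 and 3096.

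Rows of the slides were checked because pools 1 and 2 lay in row 1 and pools 3 and 4 in row 2. On both slides, control arrays lay in columns 1 and 3 and CI-AKI arrays in columns 2 and 4. Treatment and column thus cannot be told apart. Within row 1, the mean log2 difference of CI-AKI minus control was -0.031 in kidney and -0.22 in plasma. Within row 2 it was 0.028 in kidney and 0.20 in plasma. The sign thus differed between rows in both tissues, with 2 pools per group in each row and no test. In kidney, scaled miR-21 also divided by column. Pools 1 and 3, in columns 1 and 2, read 6192 to 6713, and pools 2 and 4, in columns 3 and 4, read 4822 to 5912. The plasma readings of these sets of pools overlapped. The part that position plays in the spread was not tested.

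Scaling removes a shift that most miRNAs share, so the unscaled signals were also compared with an exact permutation test. The difference of mean log2 signal was -0.044 in kidney (two-sided exact p = 0.83) and -0.15 in plasma (two-sided exact p = 0.943). With 70 ways to divide 8 arrays into groups of 4, the smallest p such a test can give is 0.0286. The same test on the scaled values gave an exact p of 1 in kidney and 0.971 in plasma.

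The responses of the tissues were then set against each other in a joint fit of all 16 arrays. With 24 rats and 3 per pool, kidney and plasma arrays must share animals, but the labels do not say which pools do, and the arrays entered this fit and the tissue comparison as separate samples. Pools of the same number correlated between kidney and plasma, in deviations from their group means, at -0.013, 0.371, -0.0056 and -0.040 in CI-AKI and at 0.164, 0.482, 0.343 and 0.254 in control, and a block on the number changed no call for miR-21. The kidney response minus the plasma response was -0.041 on the log2 scale (SE 0.33, 95% interval -0.75 to 0.66), with an adjusted p of 0.982 from limma. Of the 87 miRNAs tested for such a difference, 1 passed (1.15%). The interval as a ratio of fold changes ran from 0.596 to 1.59, and without the plasma pools numbered 4 the difference was -0.080 (adjusted p = 0.956 in limma).

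The result was followed through other ways of processing the arrays and with pools left out. In kidney, 24 alternatives were run, 8 of which left out a single pool. They gave log2 differences from -0.16 to 0.092 for miR-21, and 0 of them passed the threshold. In plasma, 25 alternatives, 8 of which left out a single pool, gave differences from -0.71 to 0.21, and again 0 passed. The extreme plasma value, -0.71 (adjusted p = 0.726 in limma), came from the normexp background model. The sign of the difference changed under 6 of the kidney and 11 of the plasma alternatives, all inside intervals that include 0.

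**Figure D3:**
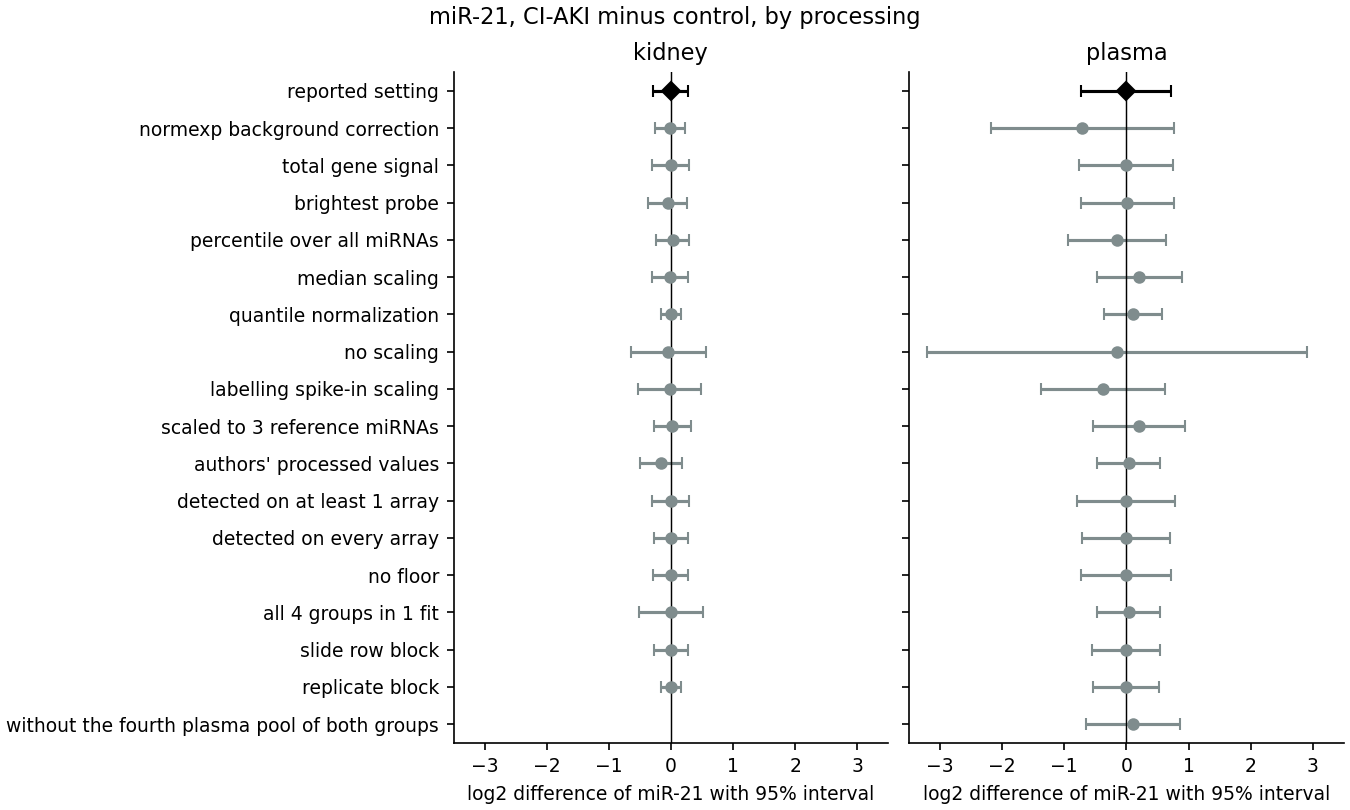
Log2 difference of miR-21, CI-AKI minus control, with its 95% interval from limma in kidney (left) and plasma (right), for the reported setting (black diamond) and the alternatives other than leaving out single pools (grey circles). Every interval includes 0. The interval without any scaling in plasma is the widest, from -3.21 to 2.91, and the last setting has no kidney value because it concerns plasma pools.

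The probes of miR-21 gave the same picture. Probe A_26_P00001210 read 7207 ± 1034 in CI-AKI kidney and 7204 ± 939 in control kidney (SD, n = 4 each), a log2 difference of -0.00082. Probe A_26_P00001211 read 4591 ± 607 in CI-AKI kidney and 4596 ± 550 in control kidney, a log2 difference of -0.0035. In plasma the log2 differences were -0.049 for the first probe and 0.070 for the second, each smaller than the SD of either group, 0.35 to 0.55. Spots of a probe on the same array varied by 1.21% to 6.59% (coefficient of variation), far less than pools did.

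The authors' deposited table of processed log2 values adds little resolution. Its columns hold nearly identical sets of values, with quantiles that differ by at most 0.048 between arrays, so a miRNA's value there is set by its rank on the array. miR-21 took only 4 distinct values, 11.94, 12.05, 12.21 and 12.58, which correspond to ranks 7, 6, 5 and 4 from the top. It stood at 12.21, 11.94, 12.21 and 12.58 in CI-AKI kidney pools 1 to 4, against 12.58, 12.21, 12.58 and 12.21 in control kidney pools. In plasma it stood at 12.05, 11.94, 12.21 and 12.21 in CI-AKI pools 1 to 4, against 11.94, 12.05, 12.21 and 12.05 in control pools. A step of a single rank among these values is worth 0.10 to 0.37. The group means in that table differed by -0.16 in kidney, which lies within that range, and by 0.041 in plasma, which is smaller than any such step.

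The passenger strand, miR-21*, was close to the limit of detection. Read by 4 probes, miR-21* was called detected on 1 of 16 arrays, control plasma pool 4. Its unscaled signal there was 2.97, and the lowest detected signal of that array was 2.05. That array is also the one with the dimmest spike-in. In the authors' deposited table it is listed at 6.02 there and at 0.367 to 0.386 on the rest. No comparison of groups was possible for this strand.

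Of the inflammation-linked list of 7 names, 6 are on the array, and 3 could be tested in kidney and 2 in plasma. 0 of them passed, where 1.7% of all tested miRNAs passed in kidney and 0% in plasma, so the count does not set the list apart. The medians were 0.013 in kidney and -0.30 in plasma (-0.084 without the pools numbered 4), beside 0.028 and -0.086 over all miRNAs tested. miR-146a, which dampens Toll-like receptor signalling, differed by -0.033 (SE 0.092) in kidney and -0.30 (SE 0.36) in plasma. miR-223, abundant in neutrophils, differed by 0.013 (SE 0.090) in kidney and -0.30 (SE 0.42) in plasma, on the log2 scale throughout.

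Among miRNAs linked to fibrosis, all 12 names are on the array and 9 were tested in kidney and 6 in plasma. 0 passed in either tissue, beside the 1.7% and 0% of all tested miRNAs, which at these list sizes does not set the list apart. The medians were 0.012 in kidney and -0.28 in plasma (-0.098 without the pools numbered 4). miR-29a, whose family represses collagen messages, differed by 0.070 (SE 0.069) in kidney and 0.049 (SE 0.30) in plasma. miR-192, an epithelial miRNA of kidney and gut, differed by -0.050 (SE 0.062) in kidney and -0.50 (SE 0.32) in plasma. The 9 kidney differences lay between -0.068 and 0.070, and the miR-21 difference lay inside that range. Such values are common in kidney: the widest of the 9, for miR-29a, ranked 92 of 176 from the smallest in absolute size.

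Among miRNAs linked to ischaemia and acute injury, 8 of 9 names are on the array, and 7 were tested in kidney and 5 in plasma. In kidney 1 passed and was higher in CI-AKI, miR-494, where 1.7% of all 176 tested miRNAs passed. The list was chosen with earlier results known, so this count is not a result about the list. miR-494 read 38.7, 23.7, 27.9 and 23.3 in CI-AKI pools 1 to 4, against 16.2, 14.5, 18.3 and 15.9 in control pools. Every CI-AKI pool stood above every control pool, as groups without overlap did for 5.11% of the 176 miRNAs. Its log2 difference was 0.78 (SE 0.16, adjusted p = 0.0475 in limma), a call that was lost under 18 of 24 alternatives, whose differences ran from 0.22 to 0.86. In mouse kidney miR-494 has been described as induced by ischaemia and as acting on Atf3.

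The other members of that list did not pass. miR-210, the best-known target of hypoxia-inducible factor, differed by 0.20 (SE 0.13) in kidney. miR-34a, a target of p53, differed by -0.15 (SE 0.12), and miR-24 by 0.19 (SE 0.067, adjusted p = 0.415 in limma). miR-188, named after its values were seen, had the largest kidney difference of the list, 1.08 (SE 0.29), with an adjusted p of 0.169 in limma. It was detected on 4 CI-AKI kidney arrays but only 1 control kidney array. It thus entered the fit only through the group where it was higher, and its control mean rests mostly on undetected signal. The median of the list in kidney was 0.19, beside 0.028 over all miRNAs tested there. miR-188 is counted in this median and in the plasma median that follows, so neither is independent of its values. In plasma 0 of 5 passed, as did 0% of all tested, and the median was -0.11, or 0.21 without the pools numbered 4.

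Marker miRNAs of the cell types in the samples overlapped between CI-AKI and control kidneys. All 5 kidney epithelium markers (miR-192, miR-194, miR-204, miR-200b and miR-30a) were detected on every kidney array, with a summed scaled level of 4890 to 5099 in CI-AKI and 4772 to 5081 in control. The 5 leukocyte and platelet markers (miR-223, miR-142-3p, miR-142-5p, miR-150 and miR-126) summed to 1700 to 1851 in CI-AKI kidney and 1643 to 1937 in control kidney. Most of these sums is miR-126, also an endothelial miRNA, with a mean log2 signal of 10.3 in both groups. The next brightest, miR-142-3p, had means of 8.10 in CI-AKI and 8.23 in control, so the sums say little about leukocytes. The 3 red cell markers on the array (miR-451, miR-144 and miR-16) summed to 1716 to 1853 in CI-AKI kidney and 1683 to 1796 in control kidney. Most of these sums is miR-16, also often used as a reference miRNA, with a mean log2 signal of 10.4 in both groups. miR-451 alone read 364 to 402 in CI-AKI kidney pools and 216 to 438 in control kidney pools. miR-122, the defining liver miRNA, was detected on none of the kidney arrays. Of these lists, 0 tested members passed in kidney, where 1.7% of all 176 tested miRNAs passed, so the count does not set them apart.

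In plasma the sums of the blood cell markers differed widely between pools. Among their members the residual SD ran from 0.22 for miR-126 to 0.69 for miR-144. It was 0.45 for miR-21, beside a median of 0.51 over all plasma miRNAs tested. The leukocyte and platelet list summed to 1673 to 3600 in CI-AKI plasma and 2427 to 3119 in control plasma, and the red cell list to 2558 to 8291 in CI-AKI and 3816 to 5619 in control. Liver miR-122 ranged from 332 to 2761 in CI-AKI plasma and from 1056 to 2104 in control plasma, all detected. In plasma, 2 of the 5 kidney epithelium markers were detected on all arrays, with sums of 234 to 577 in CI-AKI and 295 to 521 in control. 0 of the members tested passed in plasma, as did 0% of all 96 tested miRNAs.

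The miRNAs whose level was most like that of miR-21 from pool to pool were named in each tissue. Likeness was measured by Pearson's r of log2 scaled signals over the 8 arrays of a tissue, as a description, since arrays share a scaling step. In kidney, 162 miRNAs detected on all 8 arrays were compared, with a median r of -0.065. The 5 most alike were miR-146a (r = 0.946), miR-139-3p (r = 0.816), miR-142-3p (r = 0.749), miR-29b (r = 0.724) and miR-222 (r = 0.677). Without the 2 arrays farthest from the median of miR-21, the pools numbered 2, r was 0.649 for miR-146a, 0.900 for miR-139-3p and 0.701 for miR-142-3p. Other miRNAs then reached an r of up to 0.885, and miR-146a and miR-142-3p were no longer among the 5 most alike. miR-139-3p had the largest residual SD of the 176 miRNAs tested in kidney, 1.17, and divided by slide column as miR-21 did. It read 56.4 to 78.2 in kidney pools 1 and 3 and 14.6 to 18.9 in pools 2 and 4. In plasma it read 237 to 366 in pools 1 and 3 and 35.3 to 90.5 in pools 2 and 4. The part of position in this likeness was not tested.

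In plasma, 73 miRNAs were compared, with a median r of 0.117. The 5 most alike were miR-106b (r = 0.824), miR-223 (r = 0.801), miR-142-3p (r = 0.799), miR-451 (r = 0.787) and miR-146a (r = 0.764). Over the 6 arrays without the pools numbered 4, r was 0.855, 0.784, 0.784, 0.75 and 0.723 for these, in the same order. Over all 8 arrays of a tissue, miR-146a and miR-142-3p were thus among the 5 most alike in both tissues. In kidney these places depended on the pools numbered 2. The leukocyte and platelet list as a whole did not follow miR-21 evenly. In kidney r was 0.749 for miR-142-3p, 0.666 for miR-223, 0.491 for miR-142-5p, -0.187 for miR-126 and -0.538 for miR-150. In plasma r was 0.801 for miR-223, 0.799 for miR-142-3p, 0.730 for miR-142-5p, 0.371 for miR-126 and 0.303 for miR-150. miR-451, a red cell miRNA, had r of -0.268 in kidney.

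The sequences of these companions share no seed with miR-21, and they are shown so that the absence of likeness in sequence can be seen. Capitals again mark bases 2 to 8. RefSeq places miR-146a-5p at chr10:28350053-28350074 on the minus strand, miR-142-3p at chr10:73055155-73055177 on the plus strand and miR-223-3p at chrX:65151450-65151470 on the plus strand of GRCr8.
miR-146a-5p: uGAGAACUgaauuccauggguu
miR-142-3p: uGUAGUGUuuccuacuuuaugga
miR-223-3p: uGUCAGUUugucaaauacccc

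The pools that carried the likeness can be read from the values. miR-142-3p, a miRNA of blood-forming cells, read 302, 228, 303 and 276 in CI-AKI kidney pools 1 to 4, against 357, 276, 322 and 258 in control kidney pools. miR-146a read 477, 399, 494 and 487 in CI-AKI kidney pools, against 499, 423, 510 and 466 in control kidney pools. The pools numbered 2, lowest for miR-21, were also the lowest of their group for miR-146a.
In plasma, miR-223 read 619, 1364, 2481 and 2238 in CI-AKI pools 1 to 4, against 1545, 1793, 2035 and 1889 in control pools. CI-AKI pool 1 was its lowest pool, as it was for miR-21, and pool 3 was the highest of each group for both. The part that blood cells carried into the pools play in the miR-21 spread was not tested.

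**Figure D4:**
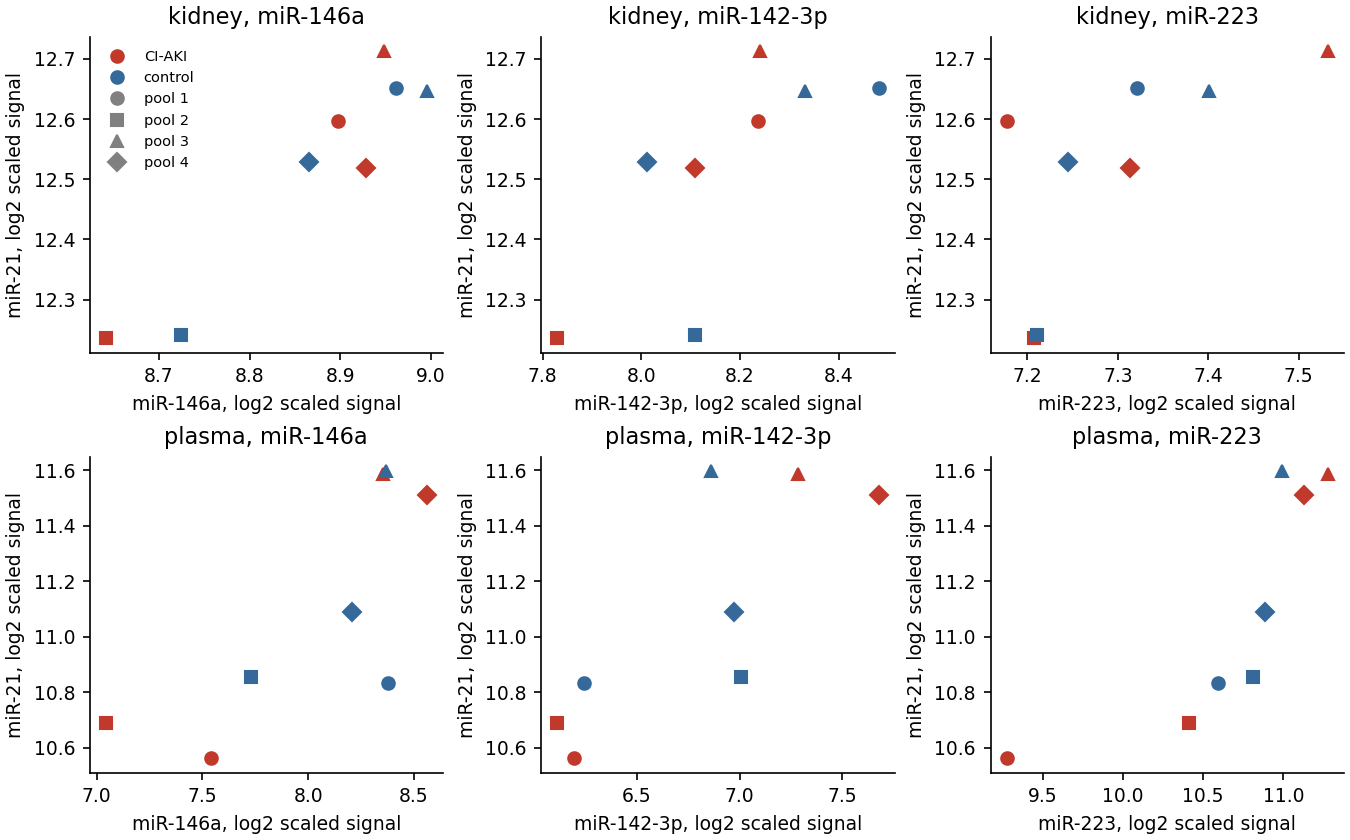
Log2 scaled signal of miR-21 (vertical axes) against miR-146a, miR-142-3p and miR-223 (horizontal axes, log2 scaled signal) in the 8 kidney arrays (top row) and 8 plasma arrays (bottom row), with red for CI-AKI, blue for control and a symbol shape for each pool number. CI-AKI and control points lie among each other in every panel, and r for miR-146a was 0.946 in kidney and 0.764 in plasma.

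Whether miR-21 is higher in kidney or in plasma depended on the scaling. Scaled over the 65 miRNAs detected on all 16 arrays, miR-21 read 2931, 2331, 3390 and 2727 in CI-AKI kidney pools 1 to 4, against 3117, 3703, 6329 and 6044 in CI-AKI plasma pools. It read 3027, 2332, 3025 and 2985 in control kidney pools, against 3770, 3808, 6161 and 4496 in control plasma pools. The means were 2845 ± 441 in CI-AKI kidney and 2843 ± 341 in control kidney, and 4798 ± 1625 in CI-AKI plasma and 4558 ± 1119 in control plasma (SD, n = 4 each). On this scale both plasma groups stood above both kidney groups, and neither the plasma groups nor the kidney groups could be ordered between themselves beyond their spread.

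In that scaling miR-21 was lower in kidney than in plasma. The log2 difference, kidney minus plasma, was -0.70 (SE 0.24, adjusted p = 0.0159 in limma) in CI-AKI pools and -0.66 (SE 0.24, adjusted p = 0.0220 in limma) in control pools. Lower calls of this kind were common: they made up 45.3% of the 181 miRNAs tested in CI-AKI pools and 44.9% of the 178 tested in control pools, where the median differences were -0.59 and -0.40. The kidney and plasma pools overlapped in CI-AKI, where 71.8% of all tested miRNAs did not, and did not overlap in control, as was so for 78.7% of those tested.

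Neither the call nor the direction held under every other scaling. Quantile normalization gave 0.34 (adjusted p = 0.0595 in limma) in CI-AKI and 0.45 (adjusted p = 0.0183 in limma) in control, a call in the opposite direction. The authors' deposited table gave differences of 0.13 and 0.33, and unscaled signals 1.48 and 1.37, in CI-AKI and control pools. Scaling to let-7a, miR-16 and miR-103, which are often used as reference miRNAs, gave -1.56 and -1.38. The whole set of miRNAs moved with these choices, since the median over all tested miRNAs in CI-AKI pools was 0.59 under quantile normalization and -1.45 under the reference miRNAs. Against that median, the miR-21 difference in CI-AKI pools was below it in both.

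The call was also lost without CI-AKI plasma pool 3 or CI-AKI kidney pool 2, and in control without plasma pool 3 or 4 or kidney pool 2; without the plasma pools numbered 4 the differences were -0.42 in CI-AKI (adjusted p = 0.133 in limma) and -0.34 in control (adjusted p = 0.218 in limma). All plasma arrays lay on 1 slide and all kidney arrays on another, so tissue and slide cannot be told apart. The probes also differed: the log2 gap between them averaged 0.65 ± 0.061 in kidney and 0.86 ± 0.11 in plasma (SD, n = 8 each), so the kidney minus plasma difference is more negative by probe A_26_P00001210 than by the other. Beside the 45.3% and 44.9% of all tested miRNAs that were lower in kidney, 3 of 3 red cell markers and 4 of 4 smooth muscle and stroma markers were lower there in both CI-AKI and control. So were 4 of 5 leukocyte and platelet markers in CI-AKI and 3 of 5 in control, while miR-126 of that list, also an endothelial miRNA, was higher in kidney, by 1.31 in CI-AKI and 1.26 in control on the log2 scale. Their part in the miR-21 difference was not tested.

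**Figure D5:**
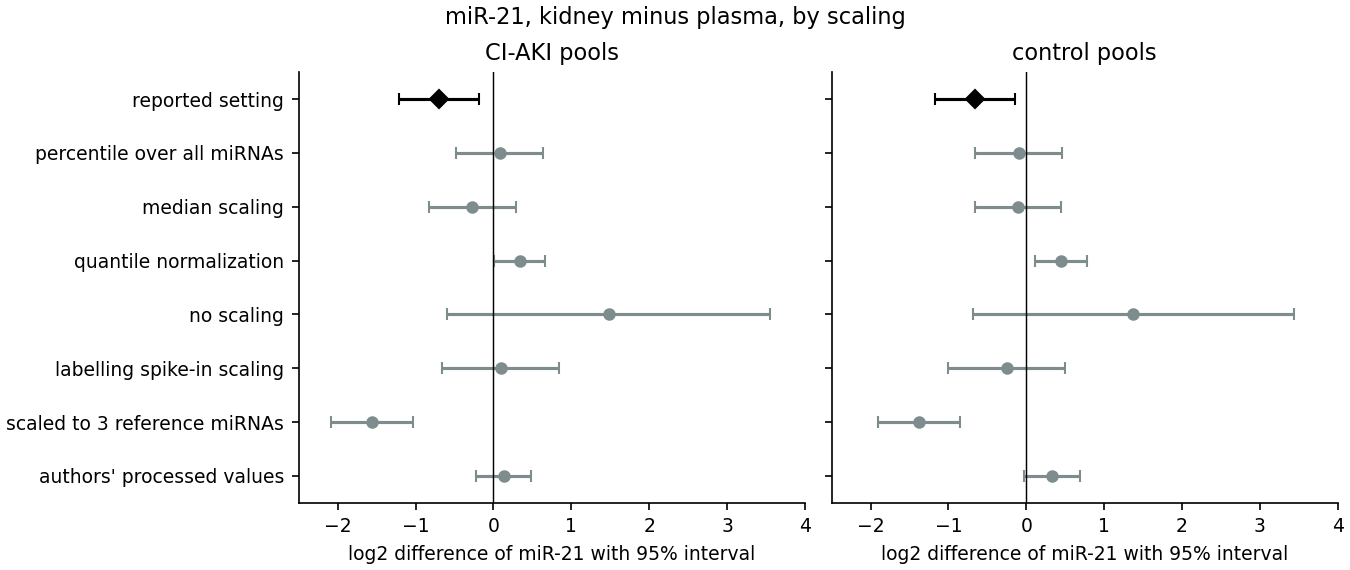
Log2 difference of miR-21, kidney minus plasma, with its 95% interval from limma in CI-AKI pools (left) and control pools (right) for the reported scaling (black diamond) and 7 others (grey circles). The reported values, -0.70 and -0.66, lie below 0, quantile normalization gives 0.34 and 0.45, and the 3 reference miRNAs give -1.56 and -1.38.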

How the data were processed

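The authors deposited, per the file headers, Agilent Feature Extraction 10.7.3.1 scanner files of 1-colour rat miRNA arrays, which hold intensity values per spot (processed and median signals), a total signal per miRNA, and outlier, saturation and detection flags. They also deposited a table of processed log2 values, 372 rows with 22 controls, each column with a median of 2.28; the columns correlated with the scanner values of the same array at 0.988 to 0.998, and how it was made is not stated there.

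Outlier spots were dropped (11 for miR-21), and processed signals were averaged per probe, then per miRNA, scaled by the 75th percentile, raised to a floor (the arrays' median smallest detected signal: 1.79 in kidney, 0.976 in plasma and 1.31 jointly) and put on the log2 scale. A miRNA entered a fit if 1 of its groups had it detected on all 4 arrays; the test was limma's moderated test (version 3.58.1, in R 4.3.3), two-sided, adjusted by Benjamini and Hochberg over every miRNA tested, with a threshold of 0.05; the code was tested on simulated data. Figures used matplotlib 3.10.9, Python 3.11.15 and pandas 2.3.3. The normexp alternative used median signals with an offset of 50.

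The miRNA, the lists and the tests were chosen with earlier results of these data known. Named are miR-21, list members past the threshold with up to 5 others per list in list order, cell type markers, and the 5 miRNAs most like miR-21 in each tissue. Plasma pools of the same number deviated together (r = 0.224, 0.488, 0.619 and 0.603), and the block on the number changed no plasma call. Kidney pools did not all do so (r = 0.204, 0.588, -0.0999 and 0.147). The labels do not say what the number marks. The number of arrays limits the precision.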

Additional observations from a re-analysis of the deposited data

Results flagged for a closer look

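On the scale common to all 16 arrays, miR-21 in control kidney pool 2 read 2332, far below the other control kidney pools, which read 2985 to 3027; the gap made up 0.939 of the group's range. Control plasma pool 4 had 84 detected miRNAs, against 188 to 208 in the other control plasma pools, a gap of 0.839 of the range. Of 20 groups of values tested with Dixon's 95% critical value, 2 stood out in this way, where chance gives about 1 in 20.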

How the results depend on the processing

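For miR-21, 0 of 24 kidney, 25 plasma and 32 interaction alternatives passed the threshold. Leaving out single pools gave -0.093 to 0.092 in kidney, -0.17 to 0.17 in plasma and -0.23 to 0.11 for the interaction. The kidney sign turned with the percentile over all miRNAs (0.029), the reference miRNAs (0.021), and when control pool 1 (0.043), 3 (0.0019) or 4 (0.0026), or CI-AKI pool 2 (0.092), was left out. The plasma sign turned with the brightest probe (0.014), median scaling (0.21), quantile normalization (0.10), the reference miRNAs (0.20), the authors' table (0.041), all groups in 1 fit (0.038), without control pools 3 (0.16) or 4 (0.13), without CI-AKI pools 1 (0.17) or 2 (0.13), and without pool 4 of both groups (0.11). The interaction sign turned with normexp (0.66), the percentile over all miRNAs (0.18), no scaling (0.10) and the spike-in (0.35), without control plasma pools 1 (0.040) or 2 (0.035), CI-AKI plasma pools 3 (0.11) or 4 (0.084), or CI-AKI kidney pool 2 (0.050). The causes were not tested.

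Kidney minus plasma passed under 22 of 32 alternatives in CI-AKI and in control pools. Of the 32, 16 left out a single pool and kept the reported scaling. The control tally also counts the call of quantile normalization, which was in the opposite direction. In CI-AKI it turned with normexp (0.32), the percentile over all miRNAs (0.083), quantile normalization (0.34), no scaling (1.48), the spike-in (0.096) and the authors' table (0.13), and was not called with median scaling (-0.27) or without plasma pool 4 of both groups (-0.42). In control it turned with quantile normalization (0.45, itself called), no scaling (1.37) and the authors' table (0.33), and was not called with normexp (-0.34), the percentile over all miRNAs (-0.099), median scaling (-0.10), the spike-in (-0.25) or without plasma pool 4 of both groups (-0.34). Leaving out single pools gave -0.89 to -0.55 in CI-AKI, lost without plasma pool 3 (adjusted p = 0.0570 in limma) or kidney pool 2 (0.0513), and -0.74 to -0.51 in control, lost without plasma pools 3 (0.0761) or 4 (0.114) or kidney pool 2 (0.0670).

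Counts of calls moved in kidney, from 3, to 0 with normexp, 1 with quantile normalization, 1 without scaling, 0 among miRNAs detected on every array and 1 with all groups in 1 fit (2 to 3 without single pools). The plasma count was 0 under all 25 alternatives. The interaction count, 1, became 0 with normexp, quantile normalization, no scaling or detection on every array, 2 without plasma pool 4 of both groups, and 1 to 4 without single pools. The tissue counts, 135 in CI-AKI and 138 in control, became 78 and 66 without scaling and 72 and 55 among miRNAs detected on every array, and the control count 63 with normexp (130 to 150 and 131 to 160 without single pools).

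With the pool number as a replicate block, miR-21 differed by -0.0014 in kidney (SE 0.067), -0.0064 in plasma (SE 0.23), -0.041 for the interaction (SE 0.26), -0.70 between tissues in CI-AKI and -0.66 in control, and no call changed. Within a tissue, pools of the same number also lay side by side in the same row of the slide. The block on the number is thus a block on position as well. All groups in 1 fit gives no separate value for the joint comparisons, which use it already. The median of the injury list in kidney, which counts miR-188, ran from 0.017 to 0.22 over 24 alternatives. Dim plasma arrays limit what could be detected.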
